A study of Homo sapiens with 8 samples.

Results

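Triple-negative breast cancer cells of the human line MDA-MB-231 were exposed to EMD37, a compound known here only by its code name, and their RNA was sequenced after 12 h. The comparison rests on 4 of the 8 RNA-seq libraries of the series: 2 from cells given EMD37 at 0.5 µM for 12 h and 2 from cells given the DMSO vehicle for the same time, marked A and B within each group. The other 4 libraries came from the same design at 24 h. All cells grew in DMEM with fetal bovine serum, glutamine and antibiotics, so every result describes 1 cell line in 1 medium at 1 dose. The labels did not say whether A and B were separate cultures, and p-values therefore measure the spread between these libraries, which may be technical. The members of the comparison were its 4 libraries, chosen by their column names, and every gene with enough reads was tested.

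The endoplasmic reticulum (ER) is where secreted and membrane proteins fold. When unfolded protein gathers there, the sensors ERN1 (IRE1), EIF2AK3 (PERK) and ATF6 start the unfolded protein response, whose factors XBP1, ATF4 and cleaved ATF6 raise chaperones, protein degradation, amino acid supply and, under lasting stress, the factor DDIT3 (CHOP). Cells also answer misfolded protein in the cytosol through heat shock factor, and many stresses raise inflammatory cytokines and immediate early genes.

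The 12 h libraries held 9.83 M (vehicle A), 11.44 M (vehicle B), 10.87 M (EMD37 A) and 10.31 M (EMD37 B) counted reads, M standing for mega. The test covered 14850 genes. Levels are given as CPM, the reads of a gene per M reads of its library, with library A before library B throughout. The correlation of log CPM between A and B was 0.991 for vehicle and 0.992 for EMD37. Of 12 genes that mark mesenchymal triple-negative lines, 11 averaged at least 1 CPM, VIM and CD44 among them. Of 16 luminal genes 11 averaged at least 1 CPM, among them the keratins KRT18 (263 CPM) and KRT8 (117 CPM). The epithelial genes CDH1 and EPCAM of that list lay at or below 0.165 CPM in each library. Of 12 fibroblast genes 2 averaged at least 1 CPM. None of 11 leukocyte genes averaged 1 CPM, with a summed level of 1.34 to 2.48 CPM. The summed level of 16 luminal genes was 572 and 556 CPM in vehicle and 754 and 823 CPM in EMD37, and XBP1 was the only called gene among them. Because these are bulk samples, a change in the share of cells with a transcript and a change in RNA per cell cannot be told apart.

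At 12 h the response was mostly upward, and its large changes were almost all rises. In edgeR's quasi-likelihood model, with p-values adjusted by the Benjamini-Hochberg method, 1292 genes were called at an adjusted p below 0.05 (8.7% of those tested). Of these, 782 genes were higher with EMD37 (5.27% of those tested) and 510 were lower (3.43%). Of the rises 225 (1.52%) were at least 2-fold and 59 exceeded 4-fold, whereas 26 falls (0.175%) reached 2-fold and 383 of the 510 stayed under 1.5-fold. For each of the 1292 called genes, both EMD37 libraries lay on the same side of both vehicle libraries. Over all tested genes both lay above in 26.5% and both below in 28.4%. Where libraries of single called genes are said below to be separate, this is a description and adds no support to the call. The 225 genes that rose at least 2-fold took 0.763% and 0.76% of the reads of tested genes in vehicle and 2.62% and 2.73% with EMD37. The number of calls depended on single libraries and on the spread in the fit: leaving out vehicle A left 444 rises and 124 falls, without vehicle B there were 448 and 211, without EMD37 A 427 and 127, and without EMD37 B 387 and 106. Without vehicle A or vehicle B of the 24 h groups, whose replicates differed most, the test called 1265 and 949 or 1271 and 958; fitted to the 12 h libraries alone it called 1394 and 1109, and DESeq2 called 637 and 336. The 4 fits without 1 library of the 12 h groups shared 325 rises and 71 falls, and the calls of these genes are termed stable.

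**Figure D1:**
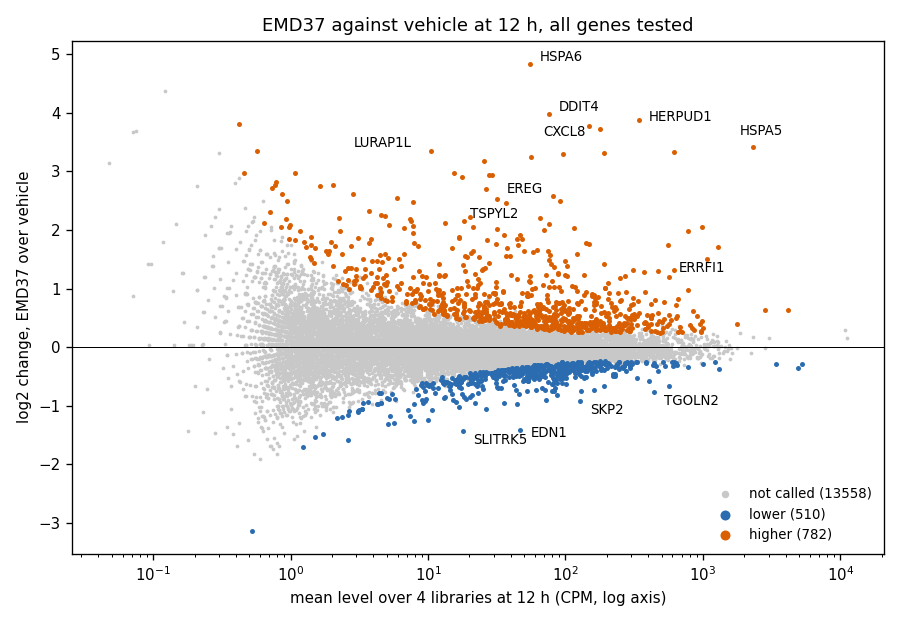
Each point is 1 of the 14850 genes tested, with the mean level over the 4 libraries at 12 h on a logarithmic x axis (CPM) and the log2 change of EMD37 against vehicle on the y axis; orange points are the 782 genes that rose, blue points the 510 that fell, and grey points the rest. The rises reach 4.83 on the log2 scale (HSPA6), and the lowest log2 change of any tested gene is -3.13. The falls labelled by name, a selection, stay between -1.43 (SLITRK5) and 0.

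Genes of 14 stress lists, among them ER folding, amino acid supply, heat shock and inflammation, were a small part of the response by number. All lists used here and below were chosen with earlier results of these data known. Their shares beside those of all tested genes are therefore descriptions and not independent tests. Of 344 tested stress-list genes 160 rose (46.5%) and 3 fell, with a median log2 change of 0.40 against -0.0060 for all tested genes. Outside these lists 622 of 14506 genes rose (4.29%) and 507 fell (3.50%), so 142 of the 225 rises of at least 2-fold lay outside them. Of 13484 genes in none of the lists used here, 514 rose and 452 fell. Stable rises numbered 114 in the stress lists and 211 outside them, and all 71 stable falls lay outside them.

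The ER folding genes supplied the largest share of calls of any list, and a known control element could be read in the promoters of several. HSPA5, the ER chaperone BiP, stood at 372 and 416 CPM in vehicle and 3903 and 4519.6 CPM with EMD37, a 10.7-fold rise (log2 3.42, standard error 0.10, edgeR adjusted p = 4.9e-13). Both EMD37 libraries were far above both vehicle libraries. The ER stress response element (ERSE), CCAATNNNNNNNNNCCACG, is bound by NF-Y together with ATF6 or XBP1. It was searched on both strands of the 250 bases before the start of 10758 tested genes with a RefSeq promoter (GRCh38.p14), where 14 genes held an exact match. Of these 10 rose and 4 were not called. The element stood in 0.0806% of all 27305 RefSeq promoters and 0.130% of those of tested genes. It stood in 1.62% of those of genes that rose (10 of 618) and 10% of those of genes that rose at least 4-fold (4 of 40). The stretches below are shown because they carry the element in genes with different sizes of response; each reads 5′ to 3′ on the strand of the gene named first, with the element in capitals (CGTGG first where it lies on the opposite strand).
HSPA5, chr9:125241361-125241439, minus strand: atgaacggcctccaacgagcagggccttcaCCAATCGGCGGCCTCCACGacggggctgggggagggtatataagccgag
HSP90B1, chr12:103930186-103930369, plus strand: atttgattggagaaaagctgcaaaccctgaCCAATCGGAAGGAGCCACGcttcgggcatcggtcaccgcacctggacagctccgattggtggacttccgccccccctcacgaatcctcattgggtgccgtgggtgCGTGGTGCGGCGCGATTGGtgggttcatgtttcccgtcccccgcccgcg
XBP1, chr22:28800573-28800651, minus strand: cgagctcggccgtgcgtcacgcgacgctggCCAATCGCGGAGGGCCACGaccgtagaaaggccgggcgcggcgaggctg
CALR, chr19:12938359-12938432, plus strand: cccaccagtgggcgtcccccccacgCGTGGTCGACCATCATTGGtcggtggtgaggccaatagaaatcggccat
CRELD2 (shared with ALG12), chr22:49918524-49918602, plus strand: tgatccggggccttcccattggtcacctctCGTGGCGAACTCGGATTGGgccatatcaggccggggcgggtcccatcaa
SERP1 (shared with EIF2A), chr3:150546680-150546746, minus strand: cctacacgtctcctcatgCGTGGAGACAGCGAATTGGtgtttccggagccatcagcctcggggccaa
ERO1B, chr1:236282153-236282208, minus strand: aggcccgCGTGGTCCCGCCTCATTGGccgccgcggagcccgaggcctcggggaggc
FICD, chr12:108515093-108515171, plus strand: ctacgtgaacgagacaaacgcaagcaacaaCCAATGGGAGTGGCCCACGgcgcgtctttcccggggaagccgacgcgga
TRIM5, chr11:5685085-5685163, minus strand: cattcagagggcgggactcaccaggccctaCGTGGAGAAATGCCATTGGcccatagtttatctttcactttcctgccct
The HSPA5 element began 66 bases before the start and that of XBP1 52 bases before it. The log2 changes were 2.46 in ERO1B, 1.64 in FICD, 1.215 in XBP1 and 0.88 in TRIM5. CANX, whose stretch is not shown, had the smallest rise of the 10 risen carriers (log2 0.40, edgeR adjusted p = 0.00297). HSP90B1, the ER form of HSP90, held 2 elements and went from 629.97 and 581 CPM to 1862 and 2090.3 CPM (log2 1.71).

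Where 2 genes pointed away from each other and shared such a stretch, the partners differed in size of response. CRELD2, a secreted ER stress protein, rose from 6.0 and 7.27 CPM to 30.2 and 29.4 CPM (log2 2.16, standard error 0.17, edgeR adjusted p = 1.7e-07). ALG12, a mannosyltransferase on the other side of the same element, read 1.83 and 2.22 CPM in vehicle and 2.76 and 2.69 CPM with EMD37 and was not called (edgeR adjusted p = 0.587), at 2 to 3 CPM a level where a small change would not be detectable. SERP1, which steadies membrane proteins at the translocation channel, rose from 262 and 236 CPM to 429.98 and 429 CPM (log2 0.79). Its partner EIF2A, an initiation factor, stood at 114 and 108 CPM and 119.8 and 131 CPM, higher in both EMD37 libraries but not called (log2 0.17, edgeR adjusted p = 0.246). Of the exonic bases of ALG12 42.1% overlap other genes, so its reads cannot be fully told apart without strand. The differences between partners were not tested. TMEM120A (log2 0.33) and ZNF17 (log2 -0.10) also held the element and were not called.

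Of the other motifs searched in the same windows, several were more frequent before genes that rose than before all tested genes. The UPRE core TGACGTGG stood in 2.43% of promoters of risen genes (15 of 618) against 0.744% of all tested. The NF-kB site GGGANTTTCC stood in 1.78% (11) against 0.576%, and the antioxidant element TGACNNNGCA in 4.21% (26) against 2.35%. For the AP-1 site TGANTCA the shares were 5.99% (37) and 4.16%. The ATF4-CEBP element TGATGNAAT was found in 0.647% (4) against 0.483%, and the cyclic AMP element TGACGTCA in 2.59% (16) against 2.84%. The heat shock element GAANNTTCNNGAA stood in 0.809% against 0.325%, and its 5 risen carriers were HSPA6, CHORDC1, OSBP, DNAJB6 and SERPINH1. HSPA6, a strictly inducible cytosolic chaperone, is shown because it had the largest log2 change among the 14850 genes of the count table that were tested.
HSPA6, chr1:161524436-161524508, plus strand: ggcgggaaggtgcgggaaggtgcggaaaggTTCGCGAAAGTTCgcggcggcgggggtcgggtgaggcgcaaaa
HSPA6 went from 3.25 and 4.10 CPM to 99.98 and 112 CPM (log2 4.83, standard error 0.14); its near copies HSPA1A and HSPA1B can share reads with it, so the split among them is uncertain. OSBP, a lipid carrier at ER and Golgi contacts that is in none of the stress lists, rose from 96.9 and 87.4 CPM to 149 and 158 CPM (log2 0.74, edgeR adjusted p = 7.72e-06). A match is a description of letters in these windows and says nothing of binding.

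Among the stress lists, folding enzymes moved most uniformly. Of 32 tested ER chaperones and folding enzymes 27 rose (84.4%, against 5.27% of all tested genes), 23 of them stably. Their median log2 change was 1.23. Of 28 genes of ER-associated degradation 14 rose, and HERPUD1, a membrane scaffold of that pathway, went from 46.4 and 40.2 CPM to 647 and 629.6 CPM (log2 3.88). Of 27 sensors and factors of the unfolded protein response 13 rose. The sensor EIF2AK3 rose by log2 1.55 and ERN1 by log2 0.74, while ATF6 read 115 and 113 CPM and 131 and 138 CPM and missed the threshold (edgeR adjusted p = 0.119, or 0.0168 in the fit of the 12 h libraries alone). Of 27 metabolic and secreted targets of ATF4 17 rose, of 20 amino acid transporters 8, and of 20 tRNA synthetases 7. DDIT4, which restrains the growth kinase mTORC1, stood at 8.94 and 8.98 CPM in vehicle and 142 and 141 CPM with EMD37. Of the exonic bases of DDIT4 41.2% overlap other genes, so its reads cannot be fully told apart without strand. SLC38A2, a neutral amino acid carrier, went from 396 and 372 CPM to 1540.1 and 1641 CPM. GARS1, the glycine synthetase, rose from 10.4 and 8.38 CPM to 24.2 and 31 CPM.

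Inflammatory, heat shock and antioxidant genes were also among the rises at 12 h. Of 29 NF-kB and cytokine genes 17 rose (58.6%, against 5.27% of all tested genes) and 12 did so stably. By edgeR's test 26 were higher at an unadjusted p below 0.05. Here and below, counts at an unadjusted p have no share of all tested genes beside them. IL6 went from 7.52 and 6.07 CPM to 55.1 and 48.4 CPM and PTGS2, the inducible prostaglandin synthase, from 11.6 and 10.0 CPM to 98.9 and 104 CPM. TNFAIP3, a brake on NF-kB, read 20.2 and 19.6 CPM and 25.7 and 28.7 CPM (edgeR adjusted p = 0.0411) and was called in none of the fits without 1 library at 12 h, where its adjusted p was 0.11 to 0.301. Of 25 heat shock genes 13 rose, 18 were higher at an unadjusted p below 0.05, and the lowest log2 change was 0.032. Of 24 NRF2 and iron genes 9 rose, among them HMOX1, heme oxygenase, from 26 and 28.9 CPM to 146 and 164 CPM; GCLM, a subunit of the glutathione-making ligase, stood at 466 and 471 CPM and 503 and 454 CPM, overlapping (edgeR adjusted p = 0.859). Of 26 cholesterol genes 11 rose. ABCA1, a sterol exporter, went from 31.6 and 24.2 CPM to 111 and 110.1 CPM, and INSIG1, the ER anchor that restrains sterol synthesis, from 29.2 and 28.1 CPM to 123 and 122 CPM. Fewer genes were called among 22 apoptosis regulators (4 rises, of which TNFRSF10B, a death receptor, was the stable one) and 26 autophagy genes (5 rises and 1 fall). The risen shares were 18.2% and 19.2%.

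Growth factor ligands and inhibitors of their signalling were both among the changes outside the stress lists. Of 16 tested EGF family genes 5 rose, against 5.27% of all genes. EREG, an EGF receptor ligand, went from 24.7 and 22.1 CPM to 142 and 135 CPM, and the groups did not overlap (log2 2.57, standard error 0.10, edgeR adjusted p = 1.82e-11). AREG, another ligand and the neighbour of EREG on chromosome 4, rose from 2.64 and 2.14 CPM to 16 and 10.4 CPM, with library A above library B. NRG1, a ligand of ERBB3 and ERBB4, rose by log2 0.76. ERRFI1, an inhibitor that binds the EGF receptor itself, rose from 354 and 333 CPM to 788 and 780.4 CPM. HBEGF (144 and 126 CPM and 131 and 116 CPM) and TGFA (191 and 186 CPM and 180.4 and 173 CPM), ligands of the same receptor, were not called.

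Of 17 MAP kinase phosphatases and feedback inhibitors 6 rose (35.3%) and 2 fell (11.8%), against 5.27% and 3.43% of all tested genes. The 3 with the largest rises, DUSP16, DUSP1 and DUSP10, encode phosphatases that act on the kinases JNK and p38. DUSP16 went from 20.4 and 19.1 CPM to 65.7 and 82.6 CPM. DUSP1 went from 67.1 and 54 CPM to 189 and 174 CPM and DUSP10 from 51.6 and 53.4 CPM to 120.3 and 129.98 CPM. DUSP5, another phosphatase of the list, rose from 77.5 and 79.0 CPM to 118 and 124 CPM (log2 0.63, edgeR adjusted p = 7.89e-05). Whether the calls follow the kinase that each phosphatase acts on was not tested. DUSP6, specific to ERK, read 164 and 158 CPM in vehicle and 133 and 132 CPM with EMD37 (log2 -0.28, edgeR adjusted p = 0.0284) and lost its call without any 1 of the 12 h libraries (0.107 to 0.27). SPRY1, a feedback inhibitor of receptor tyrosine kinases, fell from 23 and 22.4 CPM to 12.2 and 10.2 CPM (log2 -1.02, edgeR adjusted p = 0.000129). In both SPRY1 and DUSP16 the EMD37 libraries were separate from the vehicle libraries, as in every called gene. Of the exonic bases of DUSP6 40.5% overlap other genes, so its reads cannot be fully told apart without strand.

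Several transcription regulators rose and are given as single genes. MXD1, HBP1 and AHR were picked after their values were seen. TSPYL2, a nucleosome assembly protein tied to growth arrest, went from 21.4 and 25.1 CPM to 107 and 109 CPM (log2 2.21, standard error 0.11, edgeR adjusted p = 3.91e-10). KLF9, a Krüppel-like factor, rose from 4.88 and 5.13 CPM to 21 and 22.4 CPM. Of 16 tested KLF genes 7 rose (43.8%, against 5.27% of all tested genes), 3 of them stably. KLF4 and KLF6, both stable, also belong to the immediate early list. MXD1, which competes with MYC for the partner MAX, rose from 27.9 and 31.6 CPM to 93.9 and 94.7 CPM. MYC, a member of that stress list too, rose as well, from 131 and 129.99 CPM to 281 and 279.97 CPM. HBP1, an HMG-box repressor, rose by log2 1.32 and AHR, the aryl hydrocarbon receptor, from 82.9 and 80.8 CPM to 166 and 153 CPM. In each of these genes both EMD37 libraries lay above both vehicle libraries, as in every called rise. Of the exonic bases of AHR 32.3% overlap other genes, so its reads cannot be fully told apart without strand.

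Genes of chromatin and the ubiquitin system followed. Of 38 genes listed with the histone demethylases, methylases and deacetylases 5 rose, all stably. This was 13.2%, against 5.27% of all tested genes higher and 3.43% lower. KDM6B, which removes methyl groups from lysine 27 of histone H3, read 1.63 and 1.71 CPM in vehicle and 4.79 and 7.27 CPM with EMD37 (log2 1.84, edgeR adjusted p = 0.000831), a low level. KDM7A rose from 14.2 and 16.2 CPM to 33.9 and 30.9 CPM, and KDM3A, HDAC9 and PRDM1 rose by log2 0.50, 0.75 and 1.34. Of 42 ubiquitin ligases and deubiquitinases 10 rose (23.8%) and 1 fell (2.38%), with 6 stable rises. FBXO32, the muscle-atrophy ligase subunit atrogin-1, went from 11.8 and 13.3 CPM to 49.5 and 52.2 CPM. By edgeR's test 0 of 33 proteasome genes were called, 1 at an unadjusted p below 0.05 and 0 by DESeq2, and their median log2 change was 0.054.

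**Figure D2:**
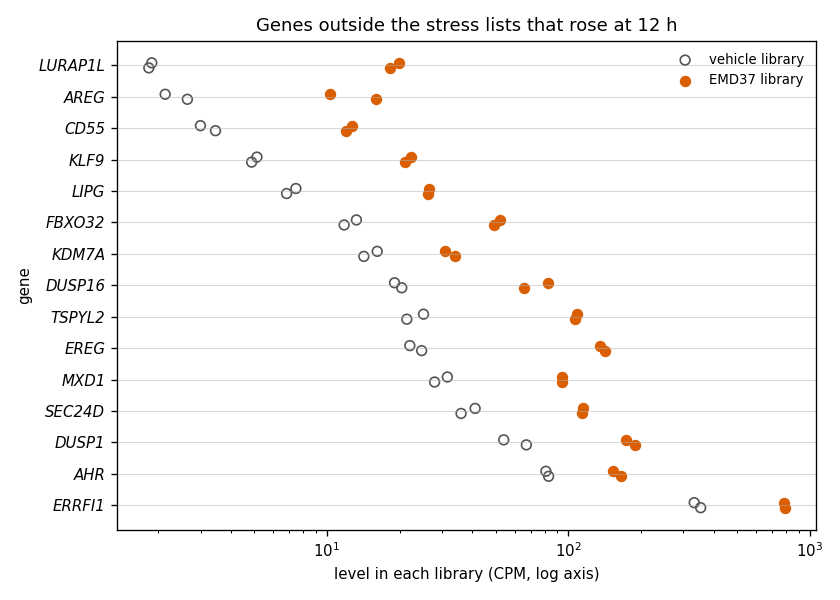
Levels of 15 genes in none of the stress lists that rose at 12 h, on a logarithmic x axis (CPM), with open grey circles for the 2 vehicle libraries and filled orange circles for the 2 EMD37 libraries. In every gene the EMD37 points lie to the right of the vehicle points, from LURAP1L at the lowest vehicle level drawn to ERRFI1 at the highest.

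Other single genes outside the stress lists also rose. LURAP1L had the largest rise among the stable genes of the count table outside the stress lists, from 1.83 and 1.88 CPM to 18.3 and 19.8 CPM (log2 3.35, standard error 0.22). RRAD, a small GTPase that restrains calcium channels, went from 0.915 and 0.684 CPM to 4.33 and 5.47 CPM. CD55, which protects cells from complement, rose from 3.46 and 2.99 CPM to 12 and 12.7 CPM. LIPG, endothelial lipase, rose from 6.81 and 7.44 CPM to 26.3 and 26.6 CPM. RCAN1, an inhibitor of the phosphatase calcineurin, stood at 99.2 and 91.5 CPM and 174 and 181 CPM. PTHLH, the parathyroid hormone-related peptide, rose from 2.13 and 2.31 CPM to 6.45 and 6.87 CPM. BEST1, a chloride channel, also rose (log2 2.16), but 14.2% of its exonic bases overlap other genes, and the ferritin gene FTH1, which it overlaps, rose from 10.2 and 13.3 CPM to 39.3 and 44.3 CPM, few reads for a gene that is usually abundant, so reads of the pair cannot be told apart without strand.

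Of 20 tested clock genes 6 rose (30%), against 5.27% of all tested genes. BHLHE40, a repressor of clock output, went from 41.4 and 43.3 CPM to 112 and 115 CPM (log2 1.42), and NFIL3, a basic leucine zipper repressor, from 39.9 and 39.3 CPM to 68.2 and 78.5 CPM. PER1, a core repressor, rose from 2.54 and 4.10 CPM to 11 and 9.26 CPM (edgeR adjusted p = 0.00119). These 3 rises were stable. The median log2 change of the list was 0.36.

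Genes of traffic between ER and Golgi rose widely but little. Of 42 genes for COPII and COPI coats and ER translocation 18 rose (42.9%) and 1 fell (2.38%), and 2 rises were stable. Of all tested genes 5.27% rose and 3.43% fell. The median log2 change of the list was 0.27. Of the 18 rises 2 reached 2-fold. The largest was that of SEC24D, a COPII cargo adaptor, from 36 and 41.1 CPM to 114 and 115 CPM (log2 1.57, edgeR adjusted p = 3.54e-09). Its relative SEC24A rose from 64.6 and 61.5 CPM to 88.6 and 90.9 CPM, and SEC23A, the inner coat partner, overlapped between groups at 336 and 290.4 CPM and 337 and 324 CPM. MIA3, which loads large cargo such as collagen into COPII carriers, rose by log2 0.86 and was in none of the lists. Of 29 listed Golgi genes 10 rose and 1 fell, with log2 changes from -0.334 to 0.948. GOLGA2, a matrix protein of the cis-Golgi, went from 48.4 and 54.2 CPM to 98.5 and 91.4 CPM. STX5 and TGOLN2 belong to none of the lists and were picked after their values were seen. STX5, the SNARE for arriving vesicles, rose from 36.1 and 34.5 CPM to 56.1 and 63.9 CPM. TGOLN2, a cargo protein of the trans-Golgi, fell from 529 and 586 CPM to 305 and 351 CPM (log2 -0.77, edgeR adjusted p = 1.38e-05).

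**Figure D3:**
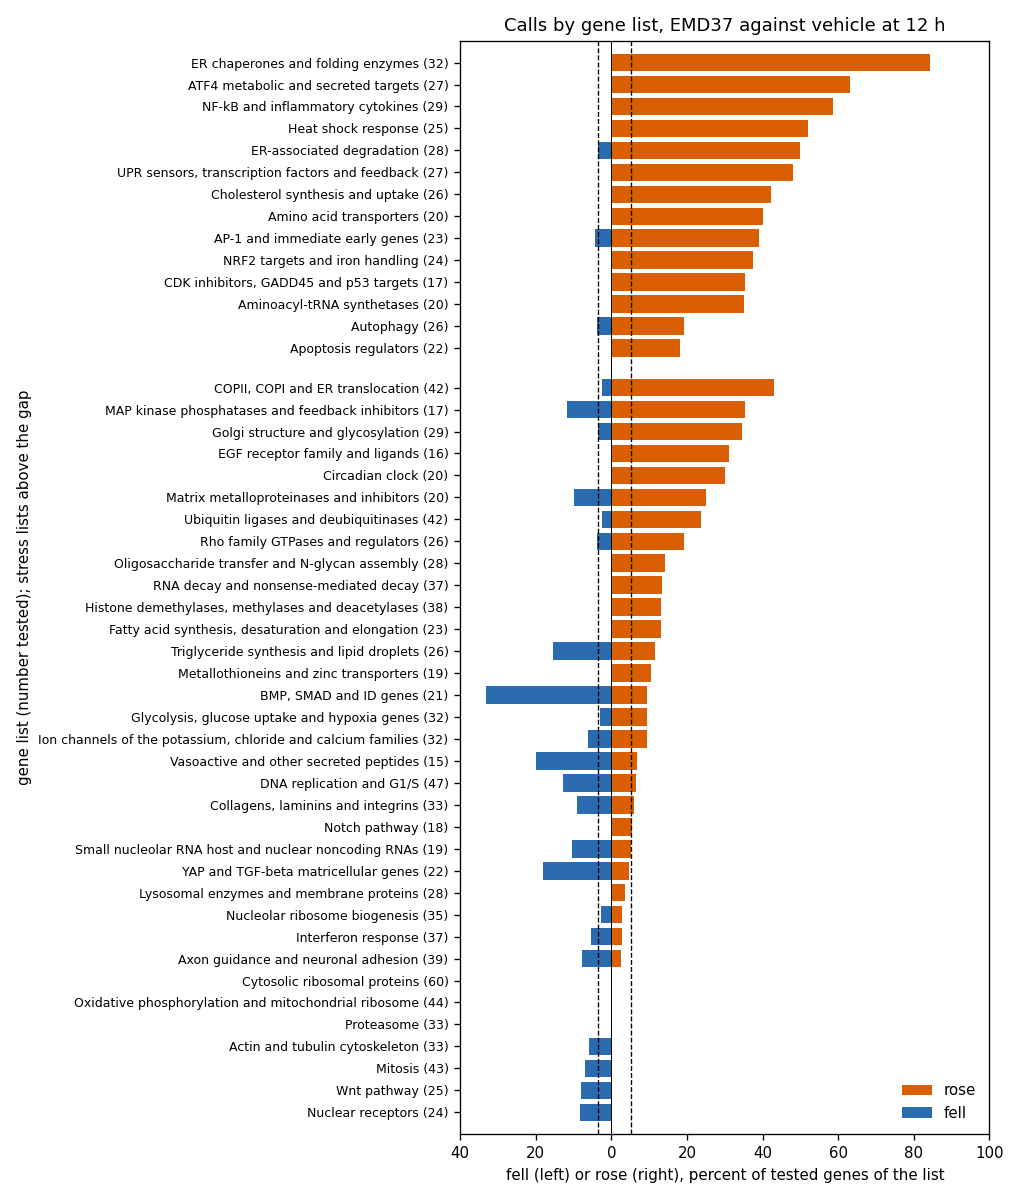
Bars show the percent of tested members of each stress and other list that rose (orange, to the right) or fell (blue, to the left) at 12 h, with dashed lines at the shares of all tested genes (5.27% and 3.43%). Rises fill the stress lists at the top, up to 84.4% of the ER chaperones, and the falls reach 33.3% in the list of BMP, SMAD and ID genes. The lists were chosen with earlier results of these data known.

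Falls were smaller than rises. The stable falls of at least 2-fold in the count table were in SLITRK5, EDN1, GOLGA2P5, LASTR, FRMD4B, PYROXD2, GVQW3, ADAMTSL1 and SPRY1. GOLGA2P5 (log2 -1.29) is a pseudogene related to GOLGA2, and reads may be split between them. FRMD4B, PYROXD2 and GVQW3 had log2 changes of -1.24, -1.17 and -1.08. SLITRK5, a neuronal adhesion receptor, went from 25.6 and 27.1 CPM to 10.9 and 8.66 CPM (log2 -1.43, standard error 0.16, edgeR adjusted p = 1.08e-05). EDN1, the vasoconstrictor endothelin-1, fell from 68 and 68.6 CPM to 24.6 and 26.7 CPM (log2 -1.41, standard error 0.10). LASTR, a long noncoding RNA, fell from 10.8 and 11.5 CPM to 4.79 and 4.48 CPM, and ADAMTSL1, a matrix protein, fell by 1.06 on the log2 scale. Both EMD37 libraries of these 4 genes lay below both vehicle libraries, as in every called fall. Some stable falls under 2-fold follow, as examples. SKP2, the ubiquitin ligase subunit that targets the CDK inhibitor p27, fell from 171 and 164 CPM to 93.5 and 83.3 CPM (log2 -0.92, edgeR adjusted p = 5.49e-07). NR2F2, an orphan nuclear receptor, fell from 89.1 and 98.6 CPM to 50.4 and 50.4 CPM. IRS1, the adaptor of insulin receptors, fell from 201 and 200.1 CPM to 111 and 129.7 CPM. The adhesion molecule PCDH7 fell by 0.85 on the log2 scale and the Wnt receptor FZD4 by 0.75.

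Triglyceride genes were split. Of 26 genes 3 rose (11.5%) and 4 fell (15.4%), against 5.27% and 3.43% of all tested genes. DGAT2, which makes triglyceride, fell from 20.7 and 21.5 CPM to 10.7 and 11.3 CPM (edgeR adjusted p = 0.000877), and FITM2, which partitions it into droplets, from 91.6 and 85.4 CPM to 51.2 and 54.6 CPM (edgeR adjusted p = 3.81e-05). PNPLA8, a phospholipase, rose by log2 0.77. These 3 were stable.

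BMP, SMAD and ID genes had the highest share of falls among the lists, with 7 of 21 lower and 2 higher against 3.43% of all genes lower, but no call in the list was stable. ID1, an inhibitor of basic helix-loop-helix factors and a BMP target, read 43.2 and 40.5 CPM in vehicle and 26.5 and 25 CPM with EMD37 (log2 -0.70, edgeR adjusted p = 0.00284); its call was lost without EMD37 B (adjusted p = 0.0639). SMAD6, an inhibitor of the same pathway, read 11.1 and 13.9 CPM and 7.0 and 6.17 CPM (edgeR adjusted p = 0.00417) and lost its call without vehicle B (adjusted p = 0.0828) or EMD37 B (adjusted p = 0.0776). The groups did not overlap in either gene, as in every called gene. Among 22 YAP and TGF-beta genes 4 fell (18.2%) and 1 rose (4.55%), against 3.43% and 5.27% of all tested genes. CCN2, connective tissue growth factor, fell stably from 470.1 and 495 CPM to 315 and 333 CPM (log2 -0.58). Its relative CCN1 read 727 and 726 CPM and 636 and 719 CPM and was not called (edgeR adjusted p = 0.487).

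**Figure D4:**
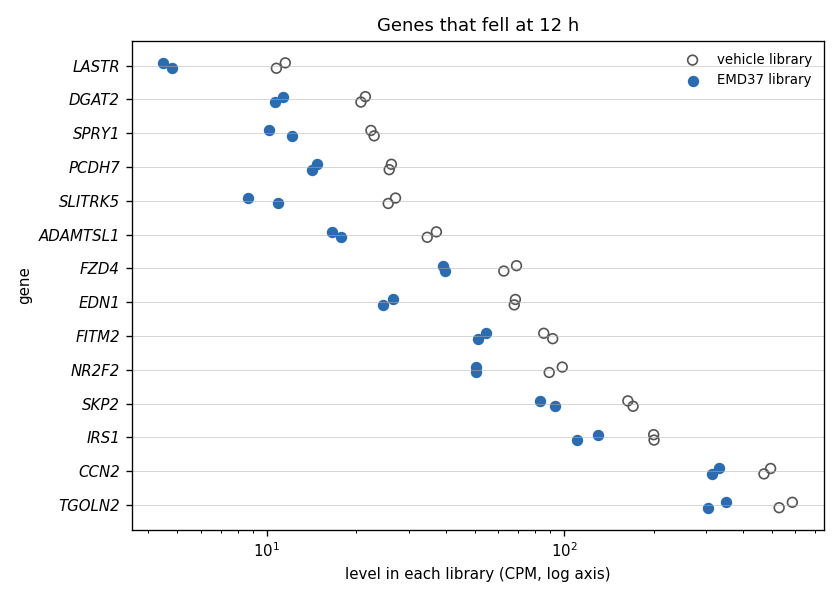
Levels of 14 genes with stable falls at 12 h, on a logarithmic x axis (CPM), with open grey circles for the 2 vehicle libraries and filled blue circles for the 2 EMD37 libraries. In every gene both EMD37 points lie to the left of both vehicle points, with log2 changes from -1.43 in SLITRK5 to -0.58 in CCN2.

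Zinc finger genes of chromosome 19 made up a large group of small falls. Many such genes encode DNA-binding repressors with a KRAB domain, and they stand in clusters of similar copies. Of 212 tested genes named ZNF on chromosome 19, 44 fell (20.8%) and 7 rose, with a median log2 change of -0.21. Of 235 ZNF genes on other chromosomes 17 fell (7.23%) and 11 rose, and of 685 other genes on chromosome 19, 6 fell (0.876%) and 34 rose. GC content moved with the changes: falls made up 5.19% of the fifth of tested genes with the lowest GC content (27.8 to 40.6% of the longest GENCODE transcript) and 0.842% of the fifth with the highest (56.7 to 73.9%). Between 39.8 and 45.8% GC, the middle range of the chromosome 19 ZNF genes, 23 of 106 of these genes fell (21.7%) against 173 of 3972 genes not named ZNF (4.36%), with median log2 changes of -0.23 and -0.048. Of the 61 ZNF falls 11 were stable, and all 11 belonged to the chromosome 19 group. ZNF792 went from 48.4 and 45.2 CPM to 23 and 25.5 CPM (log2 -0.95, edgeR adjusted p = 2.05e-05), the largest of the 11, and ZNF101 from 80.0 and 79.7 CPM to 56.4 and 58.7 CPM (log2 -0.47), the smallest. Because the copies are alike in sequence, reads may be split between them, and the values of single genes are uncertain.

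**Figure D5:**
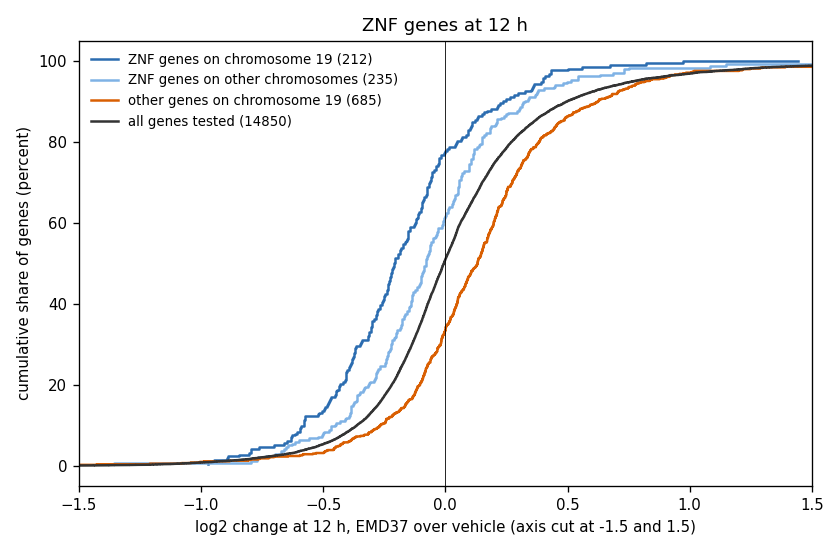
Cumulative share of genes (y axis, percent) against the log2 change of EMD37 over vehicle at 12 h (x axis) for ZNF genes on chromosome 19 (212), ZNF genes elsewhere (235), other genes on chromosome 19 (685) and all tested genes (14850). The curve of the chromosome 19 ZNF genes lies left of the others, with its median at -0.21.

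Replication and mitosis genes fell in shares above those of all tested genes, none of the falls stably, while ribosomal and respiratory genes had no call. Of 47 genes of DNA replication and G1/S 6 fell (12.8%) and 3 rose (6.38%), and of 43 mitotic genes 3 fell (6.98%) and 0 rose, against 3.43% and 5.27% of all genes. At an unadjusted p below 0.05, 15 replication genes were lower and 4 higher, and 13 mitotic genes were lower and 2 higher. The share of all tested genes at that unadjusted threshold is not given here, so these counts are not set against it. CDC6, a loader of the replicative helicase, rose stably from 135 and 119 CPM to 189 and 204 CPM (log2 0.64), while PCNA, the sliding clamp, read 147 and 142 CPM and 105 and 104 CPM (edgeR adjusted p = 0.00231), a call lost without EMD37 B (adjusted p = 0.0639). By edgeR's test 0 of 60 cytosolic ribosomal protein genes and 0 of 44 genes of oxidative phosphorylation and the mitochondrial ribosome were called, with median log2 changes of 0.041 and -0.071. At an unadjusted p below 0.05, 8 ribosomal protein genes were higher and 2 lower, and in the other list 1 was higher and 4 lower; DESeq2 called 0 in both. LIPA, the lysosomal acid lipase, stood at 102 and 106 CPM and 96.5 and 101 CPM (log2 -0.079, edgeR adjusted p = 0.649). Of 28 lysosomal genes 1 was called (3.57%), against 8.7% of all tested genes. Some usually abundant genes had few reads in these tables, such as ACTB, cytoplasmic beta actin, with 11.4 and 13.4 CPM in vehicle and 9.12 and 7.56 CPM with EMD37, so a ranking by reads describes the tables only. Among the called genes with the most reads there, ACTG1, cytoplasmic gamma actin, went from 5659 and 5944 CPM to 4766 and 4690.3 CPM, a change of log2 -0.30 whose adjusted p of 0.0432 (edgeR) rose to 0.185 to 0.295 when any 1 library at 12 h was left out. FTL, the ferritin light chain, rose from 2175 and 2272 CPM to 3190.2 and 3688 CPM, and HSP90AA1, the inducible cytosolic HSP90, from 3195 and 3319.9 CPM to 4697 and 5431 CPM.

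Genes found only in the second, normalized table were tested in a joined table of 17863 genes, of which 4.78% were higher and 2.75% lower. Of 3042 such genes 87 rose (2.86%) and 39 fell (1.28%) by edgeR's test, and 20 and 2 were stable. Without vehicle A 40 rose and 13 fell, without vehicle B 39 and 16, without EMD37 A 32 and 9, and without EMD37 B 33 and 7; DESeq2 called 43 and 19. Of the 3042 genes 1897 were of long noncoding types. NEAT1, the noncoding RNA that builds paraspeckles (chromosome 11, 65422774 to 65445540 on GRCh38), went from 282 and 222 CPM to 812 and 674 CPM (log2 1.56, standard error 0.11, edgeR adjusted p = 5.08e-09). SLC7A11-AS1, opposite the cystine carrier gene SLC7A11, went from 10.2 and 4.44 CPM to 35 and 34.5 CPM. THBS1-IT1, inside an intron of the matrix gene THBS1, fell from 52 and 45.3 CPM to 25.8 and 28.5 CPM (log2 -0.84), and THBS1 read 3847 and 3641 CPM and 2937 and 3174 CPM (edgeR adjusted p = 0.0355, 0.119 to 0.342 without 1 library at 12 h).

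Many of the rises among these genes lay beside or inside genes that rose. Of the 87 higher genes 39 (44.8%) lay within 2000 bases of a gene of the count table that rose at 12 h, against 162 of 2916 genes that were not called (5.56%) and 0 of the 39 lower genes. Of the 87, 63 were of long noncoding types, and 32 of these (50.8%) lay so near, against 117 of 1808 uncalled genes of the same types (6.47%). Examples were a pair of transcripts inside introns of HERPUD1 on chromosome 16. ENSG00000261270 (56940278 to 56941342) went from 0.828 and 1.46 CPM to 14.4 and 14.6 CPM, and ENSG00000261114 (56941028 to 56941726) from 1.93 and 1.46 CPM to 17.9 and 14.7 CPM. DNAJC3-DT starts 214 bases from the ER co-chaperone gene DNAJC3 on the other strand and rose from 4.41 and 4.44 CPM to 13.5 and 12 CPM, while DNAJC3 itself went from 354 and 347 CPM to 870.1 and 879.9 CPM. ENSG00000226471, present in the count table, lies 86 bases from XBP1 on the other strand and rose from 2.24 and 1.20 CPM to 8.20 and 7.66 CPM. The library kit does not mark strand, so reads from a gene and from a transcript overlapping it, or from unspliced RNA of the host, cannot be told apart.

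The response at 12 h was in part different from that at 24 h, a comparison in which the vehicle and EMD37 groups are separate libraries at each time. Of the 782 genes higher at 12 h 621 were also called higher at 24 h and 18 were called lower there; of the 510 lower genes 365 were called lower at 24 h and 19 higher. At 24 h 19.6% of all tested genes were called higher and 21.1% lower. The change itself differed between the times by edgeR's interaction test in 315 of the rises (96 smaller and 219 larger at 24 h) and in 180 of the falls (47 smaller and 133 larger), against 15.9% of all tested genes (2361; 1190 to 1569 when vehicle A, vehicle B, EMD37 A or EMD37 B at 12 h was left out, and 1432 without EMD37 B at 24 h). CALR, calreticulin, rose at 12 h from 7.32 and 6.93 CPM to 33.1 and 33.6 CPM (log2 2.23) and had a log2 change of -0.12 at 24 h, and CRELD2 had one of 0.032; the low level of CALR in these tables means that its fold rests on few reads. LIPG (log2 -0.10 at 24 h) and RCAN1 (log2 0.058) had likewise lost their rise. CDC6 was higher at 12 h and lower at 24 h (log2 -0.67), and DNAJB5, a cytosolic co-chaperone, went from log2 1.33 to -0.54. Other early changes had grown by 24 h, as in SKP2 (log2 -1.77), ID1 (log2 -2.33) and NEAT1 (log2 3.67).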

How the data were processed

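RNA-seq was run on 8 libraries of MDA-MB-231 cells, 2 in each of 4 groups given DMSO or EMD37 for 12 h or 24 h. Per the labels' protocols, RNA came from a Direct-zol kit and libraries from the TruSeq V2 kit, which does not mark strand. FastQC, STAR, DESeq2 and build hg38 are named in the submitters' processing notes, without roles. Neither versions nor the program that counted reads is given in the sources used here. Whole, unnormalized reads of each gene fill the deposited count table. The second deposited table holds a signal, the counts after the authors divided each library by its own size factor. Here the count table held 36715 genes and ended part-way through the Ensembl IDs. For 6912 genes present only in the normalized table, reads were recovered with the size factors, and all 55296 values came out whole within 0.01; these genes were tested in a joined table only.

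Genes were named with GENCODE 29. In edgeR 4.0.16 (R 4.3.3), 14850 genes passed filterByExpr (minimum count 10), TMM factors ran from 0.948 to 1.034, and a model of 4 group means over all 8 libraries (common dispersion 0.00537, 4 residual degrees of freedom) was tested by quasi-likelihood with Benjamini-Hochberg adjustment. A gene was called at an adjusted p below 0.05. CPM use TMM library sizes, except the marker lists, which use the reads of the joined table. The same fit gave the change at 24 h and the difference between times. On data simulated from these libraries, 200 of 14550 genes changed by known folds were recovered in 42.4% of cases at 1.5-fold, 75.8% at 2-fold and 97% at 4-fold.

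The members and the gene lists were chosen with earlier results of these data known. Named genes were the 15 largest rises and falls with at least 5 CPM and no overlap, by the same filters the 20 largest each way outside the stress lists, up to 4 called members of each list by smallest p, 8 each way among the recovered genes, 8 each way by the difference between times, the 8 most abundant called genes and 12 sentinels; not all are printed. Others, such as MIA3, HBP1, STX5, the uncalled members of lists, the ZNF genes and the carriers of promoter elements, were chosen after their values were seen. Replicate letters did not pair libraries (correlation of same-letter deviations -0.040 between the 12 h groups). Promoter windows and motifs came from RefSeq GRCh38.p14.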

Additional observations from a re-analysis of the deposited data

Results flagged for a closer look

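The change after EMD37 differed between 24 h and 12 h, by edgeR's interaction test with Benjamini-Hochberg adjustment, in 2361 genes. Values in this paragraph and the next are the log2 change at 24 h minus that at 12 h, positive where the 24 h change was higher. Among genes that rose at 12 h, the rise was smaller at 24 h in CALR (-2.35), CRELD2 (-2.13), LIPG (-1.98), DNAJB5 (-1.87), HERPUD1 (-1.71), AREG (-1.40), CDC6 (-1.30), DDIT4 (-1.0), BHLHE40 (-0.89), INSIG1 (-0.85), RCAN1 (-0.84), DNAJC3 (-0.66), HSPA5 (-0.61), ATP2A2 (-0.57) and NRG1 (-0.41). Of these, CDC6 and DNAJB5 were called lower at 24 h, and CALR, CRELD2, LIPG and RCAN1 were not called there. The vehicle level of DDIT4 was higher at 24 h, 20.4 and 22.4 CPM against 8.94 and 8.98 CPM at 12 h. With EMD37 DDIT4 stood at 181 and 156 CPM at 24 h, against 142 and 141 CPM at 12 h. In the joined table the same held for DNAJC3-DT (-1.32) and the HERPUD1 intronic transcripts ENSG00000261270 (-1.62) and ENSG00000261114 (-1.37).

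The rise was larger at 24 h in TNFAIP3 (2.87), LURAP1L (1.98), BEST1 (1.86), HDAC9 (1.68), IL6 (1.60), AHR (1.36), DUSP10 (1.25), KDM7A (1.09), PTGS2 (1.02), FBXO32 (0.99), FTH1 (0.97), FTL (0.92), SLC38A2 (0.75), MXD1 (0.59), KDM3A (0.50), MYC (0.44), MMP3 (3.01), INHBA (0.90), ADAMTS1 (0.72), UGDH (0.70), ATP2B1 (0.53) and NEAT1 (2.11). The fall was larger in SMAD6 (-1.67), ID1 (-1.63), LASTR (-1.45), ACTG1 (-1.05), CCN2 (-1.04), DUSP6 (-1.03), THBS1 (-0.96), DGAT2 (-0.92), SKP2 (-0.86), THBS1-IT1 (-0.78), PCNA (-0.49) and TGOLN2 (-0.43), and smaller in EDN1 (0.75). HBEGF (-0.93), TGFA (-0.75) and GCLM (0.86) were not called at 12 h, but their change differed between the times. GCLM in vehicle stood at 302 and 316 CPM at 24 h, against 466 and 471 CPM at 12 h. With EMD37 it stood at 557 and 589 CPM at 24 h, against 503 and 454 CPM at 12 h. The libraries of vehicle at 24 h differed more from each other than those of the other groups, and the part of that spread in these differences was not tested.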

How the results depend on the processing

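Calls were recomputed with RLE size factors, robust empirical Bayes, no filter, DESeq2 1.42.0, the 12 h libraries alone, the joined table, a replicate block and each library left out. With the replicate letter as a block 705 genes rose and 392 fell at 12 h; the letters do not mark pairs by any label, and the block moved no count of calls by over 1.5 times. DESeq2 called 336 falls, 12 of at least 2-fold, and 43 rises and 19 falls among recovered genes. The 12 h libraries alone gave 1394 rises and 1109 falls, 43 falls of at least 2-fold, and 156 and 99 among recovered genes. With 1 library left out, which in a 12 h group leaves a lone library assumed to vary like the other groups, rises ranged from 387 to 1271, falls from 106 to 958, falls of at least 2-fold from 15 to 38, calls of the difference between times from 1190 to 3236, and recovered genes from 32 to 140 rises and 7 to 90 falls. The high ends came without a 24 h vehicle library, the pair with the largest spread between replicates (chi-square per degree of freedom 7.82 against 2.73 to 3.32 elsewhere). Of 248 named genes called, 174 stayed called under every alternative and 228 under those that keep all libraries; 3 uncalled genes changed sign, ZNF17 (log2 -0.255 to 0.070 with 1 library left out), SEC23A (-0.031 to 0.196) and GCLM (-0.044 to 0.106). RN7SL1 is not in the count table, so leaving it out was run on the joined table alone, where it changed no call of a named gene. With 2 libraries a group and about 10 M reads, changes under 1.5-fold and genes near 1 CPM were often not detectable.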

Other observations

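Some genes of the synthesis of sugar donors for glycoproteins rose at 12 h. They were picked after their values were seen and got no test as a group. PGM3, a mutase of the hexosamine pathway, went from 8.54 and 7.35 CPM to 17.4 and 19.2 CPM (log2 1.21, edgeR adjusted p = 0.000242). UGDH, which makes UDP-glucuronate, rose from 65.2 and 62 CPM to 120.2 and 126 CPM. GMPPB and GMPPA, subunits of the enzyme for GDP-mannose, rose by log2 1.05 and 0.94. Of the exonic bases of GMPPB 54.1% overlap other genes, so its reads cannot be fully told apart without strand. Calcium pumps were split. ATP2A2, the pump that fills the ER, rose from 174 and 181 CPM to 271 and 272 CPM, and ATP2B1, a plasma membrane pump, from 367 and 331 CPM to 482 and 498 CPM. These 6 rises were stable. ATP2B4, another plasma membrane pump, was lower, from 49.2 and 52.4 CPM to 37.7 and 40.1 CPM (log2 -0.39, edgeR adjusted p = 0.0202), and was called in none of the fits without 1 library at 12 h (0.0854 to 0.195).

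Among 20 matrix metalloproteinases and inhibitors 5 rose (25%) and 2 fell (10%), against 5.27% and 3.43% of all tested genes. MMP3, stromelysin, went from 2.44 and 2.65 CPM to 5.62 and 6.17 CPM, and ADAMTS1, which cleaves proteoglycans, from 132 and 125 CPM to 248 and 269 CPM. COL4A1, a basement membrane collagen, fell from 102 and 102 CPM to 71.1 and 68.7 CPM (log2 -0.54). INHBA, which encodes activin A, rose from 77.2 and 70.0 CPM to 146 and 156 CPM (edgeR adjusted p = 1.55e-07). Both EMD37 libraries lay outside the range of the vehicle libraries in each of these 4 genes, as in every called gene.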
